A study of Mus musculus with 6 samples.

Results

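The S100 proteins, the annexins, the galectins and vimentin were followed through 9 genes, S100a4, S100a6, S100a10, S100a11, Anxa1, Anxa2, Vim, Lgals1 and Lgals3, out of 19057 genes with a probe on the array. All array probes annotated to these symbols were taken, which gave 11 probes, with Anxa2 and Vim on 2 each and the other 7 genes on 1. The genes were chosen with the population difference of these same arrays known. Their differences between the populations are therefore given as a description, without a test.

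Natural killer T (NKT) cells are T lymphocytes that recognise lipids presented by CD1d. Mature cells of this kind, positive for CD44 and NK1.1, came from the thymus of male C57BL/6 mice and fell into 2 populations, CD103+ and CD103-. CD103 is the integrin chain that pairs with beta 7 and binds E-cadherin on epithelium. Each population was measured on 3 arrays, described as biological replicates in the series design. All cells were of 1 strain and sex with no treatment named, and the ages of the mice are not given in the sources used here. The series as a whole concerns the actin regulator DOCK8 in NKT cells, and its labels name no Dock8 mutant among these arrays.

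S100 proteins are small EF-hand proteins, most of which bind calcium and then attach to partner proteins. Annexins bind membrane phospholipids when calcium is present, and S100A10 and S100A11 bind annexins, so that the families work together at the cell membrane. Galectins bind galactose-containing sugars on glycoproteins, both inside and outside the cell, and vimentin is the main intermediate filament protein of leukocytes. In mouse T cells, S100a4, Anxa1, Anxa2, Lgals1, Lgals3 and Vim are commonly listed among genes of effector and memory cells.

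The stretches before 4 of the gene starts are shown because they belong to the 3 genes with the widest separation between the populations, S100a4, Vim and Lgals3, and to S100a6, which lies close to S100a4 and showed a small difference. They are the 250 bases before the start of each gene on the plus strand, from RefSeq, build GRCm38.p6, in which 7 of the 9 genes had an entry and S100a10 and Lgals1 had none. Capitals mark matches, on either strand, to the TATA box, spelled TATAAA, to the GC box, spelled GGGCGG, to the AP-1 site, spelled TGANTCA, and to the core of Klf sites, spelled CACCC. None of these matches overlap in the windows shown.
S100a4, chr3:90603520-90603769: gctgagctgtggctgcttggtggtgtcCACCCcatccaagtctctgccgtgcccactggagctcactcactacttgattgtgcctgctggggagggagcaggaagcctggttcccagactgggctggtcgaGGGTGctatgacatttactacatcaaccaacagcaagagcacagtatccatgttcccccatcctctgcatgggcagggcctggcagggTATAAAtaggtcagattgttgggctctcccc
S100a6, chr3:90612644-90612893: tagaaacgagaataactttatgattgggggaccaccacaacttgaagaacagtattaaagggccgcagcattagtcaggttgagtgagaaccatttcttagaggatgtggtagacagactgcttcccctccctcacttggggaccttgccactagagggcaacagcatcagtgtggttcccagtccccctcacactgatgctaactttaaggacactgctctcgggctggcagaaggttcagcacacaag
Vim, chr2:13574061-13574310: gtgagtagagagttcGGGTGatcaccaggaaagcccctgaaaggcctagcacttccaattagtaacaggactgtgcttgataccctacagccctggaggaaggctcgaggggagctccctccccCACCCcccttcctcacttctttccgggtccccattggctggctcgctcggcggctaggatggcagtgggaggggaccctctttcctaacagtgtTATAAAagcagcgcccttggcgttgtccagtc
Lgals3, chr14:47373610-47373859: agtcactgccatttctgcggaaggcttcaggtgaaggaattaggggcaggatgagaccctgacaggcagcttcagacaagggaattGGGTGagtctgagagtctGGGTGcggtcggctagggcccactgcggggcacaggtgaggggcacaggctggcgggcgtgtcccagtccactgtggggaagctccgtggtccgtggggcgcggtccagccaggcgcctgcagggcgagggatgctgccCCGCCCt

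S100a4 and Vim both held TATAAA shortly before the start, with its first base 31 and 32 bases upstream. Lgals3 held a GC box and the Klf core, and S100a6 held none of the 4 motifs. TATAAA was present in 4 of the 7 windows (S100a4, Anxa1, Anxa2 and Vim), and in 12.4% of the 32851 RefSeq promoter windows of this length. The GC box was present in 3 of the 7 windows and in 32.7% of all, the AP-1 site in 2 and in 6.75%, and the Klf core in 4 and in 52.0%. Anxa1, with TATAAA, and S100a6, without it, both showed small differences between the populations. These matches describe the letters in each window and are not tests of binding.

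The arrays differed in brightness, with mean signals of 501.6 to 825.9 on the CD103+ arrays, 526.1 on CD103- array 1 and 277.4 and 276.5 on CD103- arrays 2 and 3. All values below are log2 signals after background correction and quantile normalization, and a probe was kept when its detection p was under 0.05 on at least 3 of the 6 arrays. Itgae, which encodes CD103, was higher in the CD103+ population by 4.73 log2 units (SE 0.181, limma adjusted p = 9.5e-05). The NKT cell markers Cd3d, Cd3e, Cd3g, Klrb1c, Zbtb16, Il2rb, Cd44 and Tbx21 were all measured, and none passed limma's test between the populations, with 2 at an unadjusted p under 0.05. Of these 8 markers 2 had a positive difference and the median was -0.24. Klrb1c, Zbtb16 and Il2rb, at -0.46, -0.68 and -0.66, lay lower on every CD103+ array than on any CD103- array. The 2 positive ones, at up to 0.31, lay higher on every CD103+ array. Of all measured genes, 8.72% were lower and 14.5% higher in CD103+ cells with no overlap of arrays. Epcam and Col1a1, markers of epithelium and stroma, were not detected on any array. Of the 11 probes of the 9 genes, 10 were kept, and each gene had a probe detected on all 6 arrays.

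S100a4, Vim and Lgals3 stood farthest apart, with all 3 CD103+ arrays above all 3 CD103- arrays and mean differences of 1.85, 1.06 and 0.92 log2 units. Anxa2, Lgals1 and S100a11 also lay higher on every CD103+ array, by 0.53, 0.40 and 0.35. S100a6, S100a10 and Anxa1 overlapped between the populations, at 0.14, -0.07 and -0.12. The 9 differences had a median of 0.40 and 7 of them were positive, while the 8999 measured genes had a median of 0.05 and 56.9% of them were positive. Arrays did not overlap, with CD103+ higher, for 6 of the 9 genes and for 14.5% of all measured genes, with CD103+ lower for 8.72%. By the brightest probe, 2 of the 9 genes (S100a4 and Vim) lay past an adjusted p of 0.05 in limma's fit over all probes, where 1.16% of measured genes were higher and 0.222% lower. Of all tested probes 0.928% were higher and 0.252% lower. With the replicate number as a block it was 1 gene, S100a4, beside 0.567% and 0.0444% of measured genes. Without CD103+ array 1 or 3 neither S100a4 nor Vim was past this threshold, and without CD103+ array 2, CD103- array 2 or CD103- array 3 it was S100a4 alone. Since the genes were chosen from this contrast, nothing is read from these counts. In sorted populations, a smaller number of cells with a transcript and less of it per cell cannot be told apart.

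**Figure D1:**
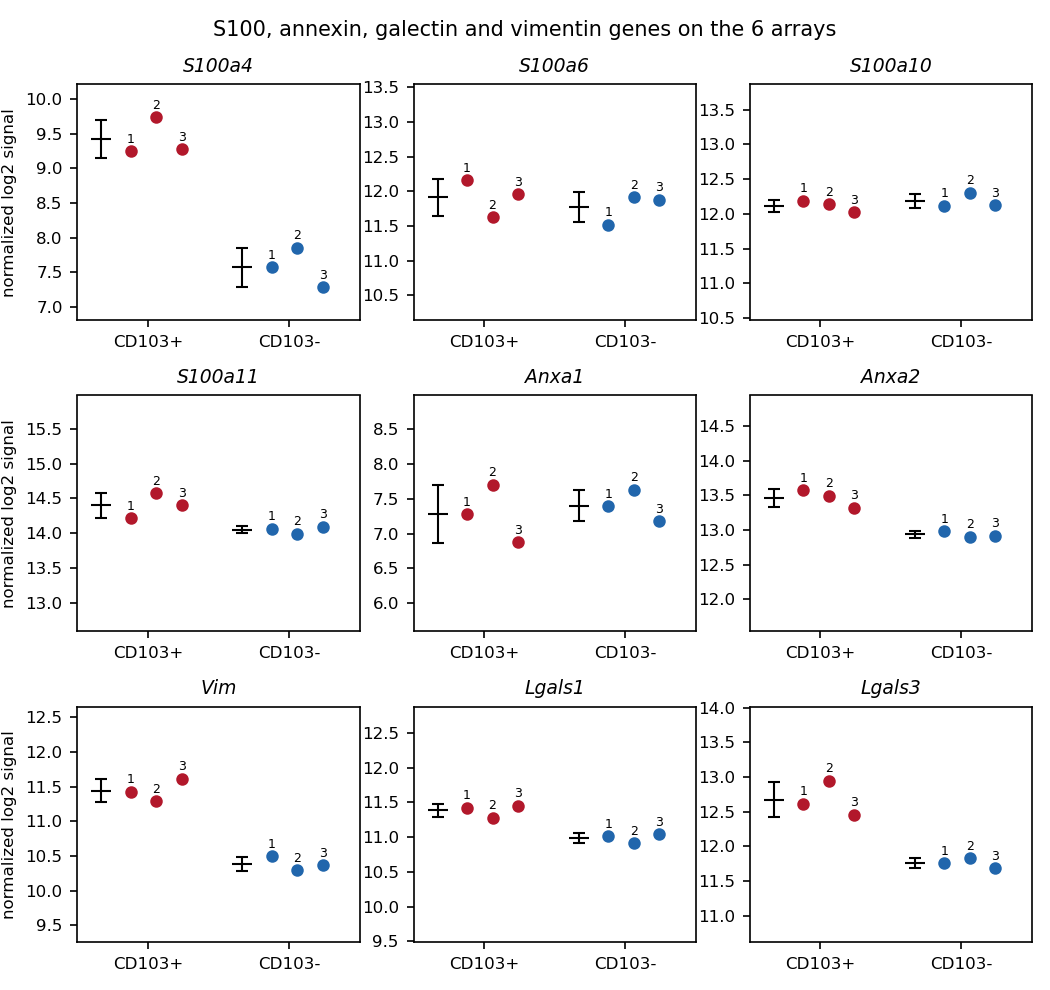
Normalized log2 signal (vertical axes, each spanning the same number of log2 units) of the brightest probe of each gene on the 3 CD103+ arrays (red) and the 3 CD103- arrays (blue), numbered by replicate, with the mean and SD to the left of each set of points. The points of S100a4, Vim and Lgals3 are widely separated, while those of S100a6, S100a10 and Anxa1 overlap.

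Among the S100 genes, S100a4 encodes a protein that binds non-muscle myosin IIA and takes part in cell motility. Its log2 signals were 9.25, 9.73 and 9.28 on CD103+ arrays 1, 2 and 3 and 7.58, 7.86 and 7.28 on CD103- arrays 1, 2 and 3. The lowest CD103+ array lay above the highest CD103- array, and array 2 was the highest in both populations. The difference was 1.85 (SE 0.211, n = 3 per population), or 3.60-fold, and 99.7% of tested probes had a smaller signed difference. S100a4 was the widest of the 9 differences in each of 19 alternative processings. There it ranged from 1.35 without background correction to 1.999 without CD103- array 2. Some of these cannot change a difference: other filters, the intensity trend and the replicate block. For a gene with a single kept probe, the mean over kept probes cannot change it either.

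S100a6 encodes calcyclin, another calcium sensor. Its signals were 12.16, 11.63 and 11.95 in CD103+ cells and 11.52, 11.91 and 11.88 in CD103- cells. The lowest CD103+ array, array 2, fell between the CD103- arrays, so the populations overlapped. The difference of 0.14 (SE 0.194) was smaller than its standard error, and it became 0.52 with array brightness as a covariate and 0.39 without CD103- arrays 2 and 3.

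S100a11 encodes an S100 protein that binds annexins 1 and 2. Its signals were 14.22, 14.58 and 14.41 in CD103+ cells and 14.06, 13.99 and 14.10 in CD103- cells. The populations did not overlap here, with a difference of 0.35 (SE 0.149). This order depended on the scaling, since the difference was 0.12 after cyclic loess, -0.11 after median scaling (0.03 when centred on all probes) and 0.00 in the authors' deposited log2 values (-0.13 when centred).

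S100a10 encodes p11, the partner of annexin 2 in a membrane-bound heterotetramer. Its signals were 12.19, 12.14 and 12.02 in CD103+ cells and 12.12, 12.30 and 12.12 in CD103- cells. The 2 sets of arrays overlapped, and the difference of -0.07 (SE 0.139) lay between -0.15 and 0.00 in all alternatives.

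Of the annexins, Anxa2 encodes the annexin that joins S100A10 and links membranes to actin. Its brighter probe read 13.57, 13.49 and 13.32 on the CD103+ arrays and 12.99, 12.90 and 12.92 on the CD103- arrays. All CD103+ arrays were higher, by 0.53 on average (SE 0.140, 1.44-fold). The second Anxa2 probe gave 8.22, 8.40 and 8.37 against 8.25, 8.05 and 8.06, with CD103- array 1 above CD103+ array 1, and a difference of 0.21 (SE 0.141). The mean over both probes was 0.37. Anxa2 and its partner S100a10 gave unlike values, 0.53 and -0.07, though the difference between these differences was not tested.

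Anxa1 encodes annexin 1, a membrane-binding protein that ends inflammatory responses through formyl peptide receptors. Its signals were 7.28, 7.71 and 6.87 in CD103+ cells and 7.39, 7.63 and 7.18 in CD103- cells. Both the highest and the lowest of the 6 arrays were CD103+, the widest spread within a population among the 9 genes. The difference was -0.12 (SE 0.238), and it ranged from -0.49 with array brightness as a covariate to 0.09 without CD103+ array 3.

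Vimentin filaments give lymphocytes their stiffness and are rearranged when T cells migrate. The kept Vim probe read 11.43, 11.29 and 11.61 in CD103+ cells and 10.50, 10.29 and 10.37 in CD103- cells. Each CD103+ array lay above every CD103- array, and the difference was 1.06 (SE 0.151), or 2.08-fold. It lay between 0.93 and 1.26 in the 19 alternatives, some of which, as for S100a4, cannot change it. The second Vim probe was detected on CD103+ arrays 2 and 3 alone, with signals at 5.77 and 5.40, and it was not kept.

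Of the galectins, Lgals3 encodes galectin 3, the galectin with a collagen-like tail that lets it form lattices on glycoproteins. Its signals were 12.62, 12.95 and 12.46 in CD103+ cells and 11.76, 11.83 and 11.69 in CD103- cells. The CD103+ arrays were all higher, by 0.92 (SE 0.168, 1.89-fold), and this value ran from 0.69 to 1.02 over the alternatives. In each population array 2 was the highest and array 3 the lowest.

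Lgals1 encodes galectin 1, a dimer that binds T cell glycoproteins and can promote T cell death. Its signals were 11.43, 11.28 and 11.45 in CD103+ cells and 11.01, 10.91 and 11.04 in CD103- cells. The spread within each population was small, all CD103+ arrays were higher, and the difference was 0.40 (SE 0.136, 1.32-fold). After median scaling centred on all probes it was 0.59.

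**Figure D2:**
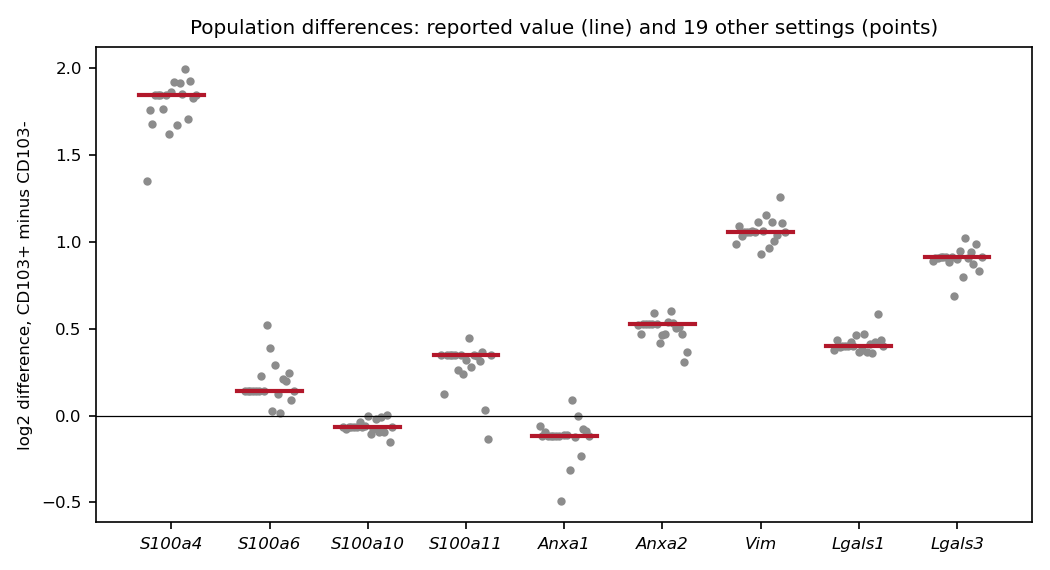
Log2 difference, CD103+ minus CD103- (vertical axis), of each of the 9 genes as reported (red line) and in 19 other processings of the same arrays (grey points, one each). Points for other filters, the intensity trend and the replicate block equal the reported value by construction. S100a4, Vim, Lgals3, Anxa2 and Lgals1 stay above 0 in all of them, S100a6 does so from 0.02 upward, and S100a11, S100a10 and Anxa1 have points on both sides of 0.

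Within a population the 9 genes were not all highest on the same array, which is a description of 3 arrays without a test. In CD103+ cells, 4 of them were highest on array 2, 3 on array 1 and 2 on array 3. S100a4, Lgals3, S100a11 and Anxa1 lay above their CD103+ mean on array 2, by 0.32, 0.27, 0.18 and 0.42 log2 units. S100a6, Vim and Lgals1 had their lowest CD103+ value on that array, with deviations of -0.29, -0.16 and -0.11. In CD103- cells, 5 of the 9 genes were highest on array 2.

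Macrophages also express several of these genes, among them Lgals3, S100a4, Vim and Anxa2. Of 18 macrophage markers, 13 were measured, and 11 of them were higher in CD103+ cells by limma and none lower, or 7 with the replicate number as a block. Itgam, Spi1 and Cd14 were detected on no array, Mertk had no kept probe and Cd68 had no probe. Lyz2, the macrophage lysozyme, was higher by 4.98 log2 units (SE 0.324, adjusted p = 0.00119), while C1qb, a subunit of complement C1q, and Adgre1, which encodes F4/80, were detected on no CD103- array. Their bounds were at least 7.97-fold and at least 2.59-fold higher, with limma adjusted p of 0.00255 and 0.00537. Csf1r, the receptor for macrophage colony-stimulating factor, did not pass at 0.31 (adjusted p = 0.545). The summed linear signal of the list was 5539 to 7149 on the CD103+ arrays and 2335 to 2812 on the CD103- arrays. This sum takes the brightest probe of every listed gene with a probe, detected or not. Within the CD103+ population, 11 of the 13 markers, C1qb among them at 8.83, 7.74 and 8.86 on arrays 1, 2 and 3, were lowest on array 2, where S100a4 and Lgals3 were highest and Vim and Lgals1 lowest. Lyz2 and Mpeg1 were highest on array 2. The part of macrophage transcripts in the differences of the 9 genes was not tested.

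**Figure D3:**
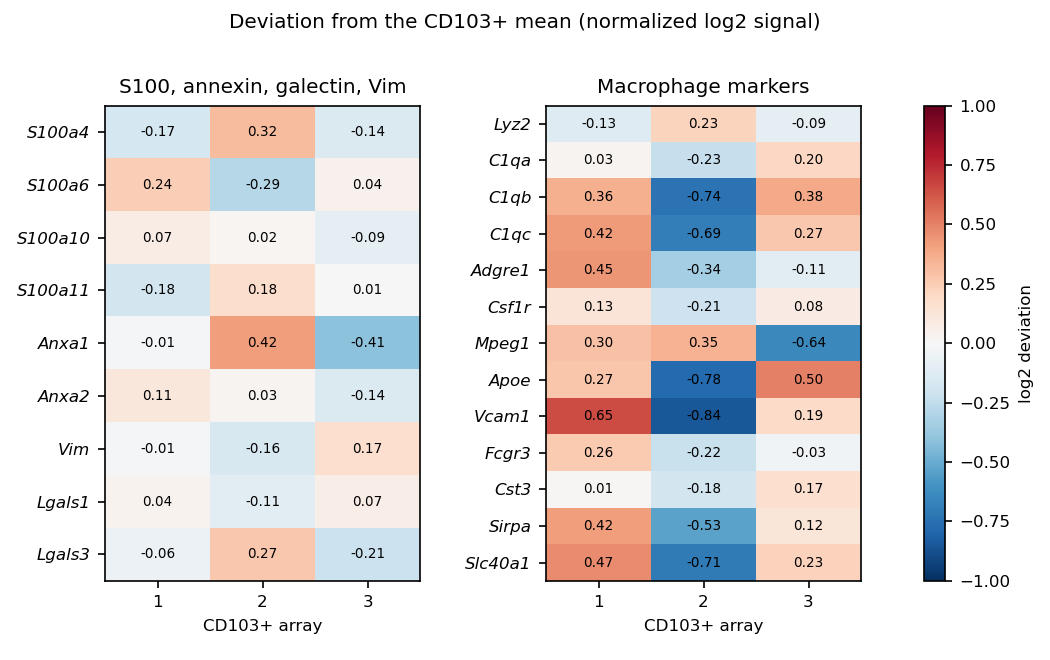
Deviation of each gene's normalized log2 signal from its mean over the 3 CD103+ arrays (colour and printed number, in log2 units), for the 9 genes on the left and the 13 measured macrophage markers on the right. On array 2, C1qb and 10 other markers are at their lowest, as are S100a6, Vim and Lgals1. S100a4, S100a11, Anxa1 and Lgals3 are at their highest there, as are the markers Lyz2 and Mpeg1.

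The neutrophil markers S100a8 and S100a9, which encode the subunits of calprotectin, varied widely between arrays. S100a8 read 8.72, 6.87 and 8.16 in CD103+ cells and 4.58, 7.55 and 7.497 in CD103- cells, and was not detected on CD103- array 1. The populations overlapped, and the difference of 1.38 (SE 0.839) did not pass limma's test (adjusted p = 0.485). S100a9, detected on 3 arrays, lay at 1.05 (adjusted p = 0.434). The third measured marker, Elane, was lower on every CD103+ array than on any CD103- array, at -0.63 (adjusted p = 0.479). None of the 3 passed, also at an unadjusted p under 0.05. The summed signal of this list was 362 to 827 on the CD103+ arrays and 243 to 623 on the CD103- arrays. No dendritic cell marker among the 3 measured passed limma's test, though all 3 had an unadjusted p under 0.05, as did 1276 of the 8999 measured genes. Their arrays did not overlap, as in 14.5% of all measured genes with CD103+ higher and 8.72% with CD103+ lower. Itgax, Flt3, Xcr1 and Clec9a were detected on no array. H2-Aa and Cd74, of antigen presentation by class II molecules, lay higher in CD103+ cells at 1.76 and 1.01, while Siglech, a marker of plasmacytoid dendritic cells, lay lower at -0.48. The summed signal of the dendritic list was 1008 to 1099 on the CD103+ arrays and 620 to 807 on the CD103- arrays. The part of such cells in the result was not tested. Ms4a1, a B cell marker, was detected on 1 array. The lists for B cells, for epithelium and stroma and for cortical thymocytes gave no call by limma among 1, 1 and 3 measured genes, of which Pecam1, an endothelial gene at -1.02 (adjusted p = 0.0819), had an unadjusted p under 0.05. Their summed signals on the CD103+ and CD103- arrays were 132 to 159 and 89.2 to 195 for B cells, 278 to 309 and 358 to 383 for stroma, and 256 to 487 and 237 to 547 for thymocytes. All these sums include undetected genes and so hold background signal. In the list for epithelium and stroma, 7 of 10 genes were detected on no array.

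Other genes of these families, together with their receptors and partners, actin binders and genes often listed beside S100a4 in memory T cells, made up 7 lists with 90 genes, of which 56 were measured. Of these, 3 were higher in CD103+ cells by limma with adjustment over all probes and none was lower, beside 1.16% and 0.222% of all measured genes, and 13 had an unadjusted p under 0.05, as did 1276 of the 8999 measured genes. Their median difference was 0.19, against 0.05 for all genes. The higher genes were S100a1, from the S100 family, and Actn1 and Ccl5, from the lists of actin binders and of memory T cell genes. None of the 3 passed without CD103+ array 1, 2 or 3 or without CD103- array 3, and Ccl5 alone did without CD103- array 2.

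S100a1, a calcium sensor best known from heart muscle, read 6.47, 6.16 and 5.98 on the CD103+ arrays and was not well above background on any CD103- array. Against background this made it at least 1.65-fold higher (limma adjusted p = 0.0406, with 0.0165 to 0.592 over 18 alternatives, in 7 of which it passed). Its measured means were 6.20 and 4.88. Of the other S100 proteins 5 were measured, 6 were detected on no array, and 1 was higher and none lower. S100a13, which takes part in the export of growth factors, did not pass at -0.53 (adjusted p = 0.517).

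Actn1, which encodes the actin crosslinker alpha-actinin 1, read 11.04, 10.83 and 10.78 in CD103+ cells and 9.74, 9.89 and 9.90 in CD103- cells. The 2 sets did not overlap, and the difference of 1.04 (SE 0.145) passed limma's test (adjusted p = 0.0229). With the replicate number as a block it did not (adjusted p = 0.0752, range 5.99e-04 to 0.283 over 18 alternatives). Among 16 measured linkers of actin to the membrane and actin binders it was the single one to pass, and none was lower. Named for their bright probes, the actin-sequestering thymosins Tmsb4x (-0.18) and Tmsb10 (0.12) and the focal adhesion protein Zyx (0.19), had adjusted p of 0.680, 0.726 and 0.561.

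Ccl5, a chemokine stored by memory and innate-like T cells, read 12.97, 13.19 and 12.87 in CD103+ cells and 11.65, 12.004 and 11.71 in CD103- cells. The populations did not overlap, with a difference of 1.23 (SE 0.166, limma adjusted p = 0.0203, range 1.65e-04 to 0.380 over 18 alternatives). It was the one gene to pass among 8 measured genes often listed beside S100a4 in memory T cells. There, Id2 (-0.17), a regulator of innate-like lymphocytes, Lmo4 (0.20) and the hyaluronan receptor Cd44 (-0.10) did not pass, at adjusted p of 0.641, 0.574 and 0.794.

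No other annexin passed limma's test among 6 measured, with 2 at an unadjusted p under 0.05 and a list median of 0.30. The dim Anxa3, detected on 1 CD103- array, lay highest of them at 0.77 (SE 0.177, limma adjusted p = 0.111), without overlap of arrays. Anxa6, which organises membrane domains, lay at 0.27 (adjusted p = 0.496), and Anxa5, which binds exposed phosphatidylserine, at 0.33 (adjusted p = 0.304) with all CD103+ arrays above all CD103- arrays. Anxa11 lay at 0.17 by its brightest probe (adjusted p = 0.577). A much dimmer Anxa11 probe that was also kept lay at -0.58 (SE 0.188, limma adjusted p = 0.228). Anxa8, Anxa9, Anxa10 and Anxa13 were detected on no array.

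By the brightest probe of each gene, no other galectin passed limma's test among 5 measured, and none had an unadjusted p under 0.05. Lgals9, the galectin that binds the receptor TIM-3, lay at 0.12 (adjusted p = 0.692), Lgals8 at -0.18 (adjusted p = 0.660) and Lgals4 at 0.04 (adjusted p = 0.931). The probes of Lgals9 differed in direction. A dimmer one, detected on every array, lay lower on each CD103+ array, at -0.65 (SE 0.148, limma adjusted p = 0.106), and another lay at 0.07. The list median was 0.04, where Lgals3 lay at 0.92 and Lgals1 at 0.40, and these were chosen with their values known.

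The other intermediate filament genes and their linkers gave no call among 7 measured, with 2 at an unadjusted p under 0.05. Plec, which encodes the linker plectin that ties vimentin to actin, lay at 0.36 (adjusted p = 0.297) with no overlap between the populations. The nuclear lamins Lmnb1 (0.07) and Lmnb2 (-0.16) had adjusted p of 0.881 and 0.736.

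Receptors and partners of these families also gave no call among 9 measured, with 8 positive differences, beside 56.9% positive among all measured genes, and 4 at an unadjusted p under 0.05, beside 1276 of 8999. Ahnak, the large scaffold protein that binds the complex of S100A10 and annexin 2, lay at 0.39 (adjusted p = 0.320), and Lgals3bp, a glycoprotein bound by galectin 3, at 0.24 (adjusted p = 0.445). Both had all CD103+ arrays higher. Ptprc, which encodes the galectin ligand CD45, lay at 0.01 (adjusted p = 0.985).

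**Figure D4:**
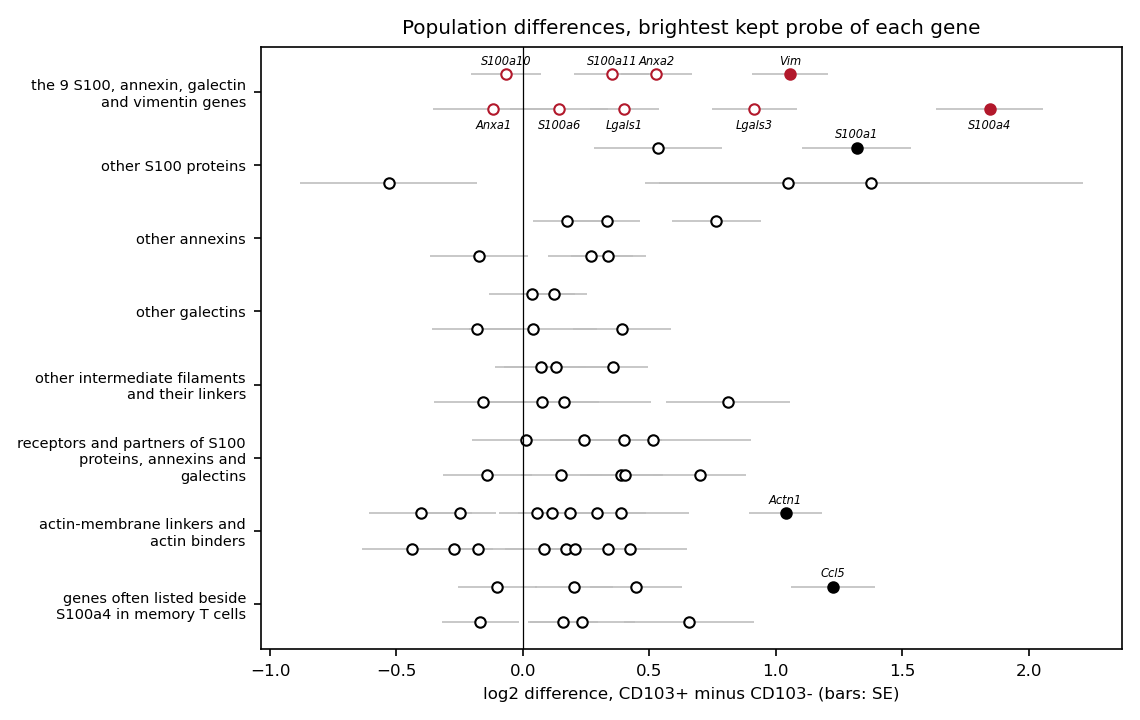
Log2 difference, CD103+ minus CD103- (horizontal axis), with its standard error (grey bars), for the brightest kept probe of each of the 9 genes (red) and of each measured gene of the 7 related lists (black). Filled points have a limma adjusted p under 0.05: S100a4 and Vim, whose choice used this contrast, and S100a1, Actn1 and Ccl5.

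Most S100 genes lie in 1 cluster on mouse chromosome 3, and in the RefSeq gene order (GRCm38.p6) the values of the measured ones can be set side by side, though differences between them were not tested. S100a4 (1.85) is separated from S100a6 (0.14) by S100a5 alone, which was detected on fewer than 3 arrays. On its other side came S100a2, without a probe symbol here, then S100a3 and S100a16, both detected on fewer than 3 arrays, and S100a14 at 0.53 (limma adjusted p = 0.375). S100a11 (0.35) and S100a10 (-0.07) are next to each other.

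The genes whose values over the 6 arrays were most like the mean profile of the 9 genes were Agtrap, Fcer1g, Ccl5, Ifitm3 and St6gal1. Their Pearson correlations with it over 6 arrays were 0.998 for Agtrap and 0.995 for each of the other 4. The 6 arrays hold both populations, so such a value includes the difference between them. The differences of these genes were 0.48 for Agtrap, which encodes an angiotensin receptor-associated protein, 1.60 for the Fc receptor adaptor Fcer1g, 1.64 for the interferon-inducible membrane protein Ifitm3 and 0.63 for the sialyltransferase St6gal1.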

How the data were processed

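Transcripts of 6 sorted samples were measured on Illumina bead arrays with biotinylated cRNA. The deposited intensity values are bead-summarised probe signals, not normalized, per the file headers. Beside each the deposited table gives a detection p-value per the file headers. The authors also deposited log2 values, whose background treatment and scaling are not given in the sources used here. Their column medians were 5.18 to 5.21 for CD103+ and 5.21, 5.42 and 5.42 for CD103-.

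Of 45281 probes, 18 with values shifted within the line were left out. The array annotation gave 34874 probes a single gene symbol, 18 more than one and 10371 no symbol. Signals were processed with the neqc function (limma 3.58.1, R 4.3.3) (background from the detection p-values, offset 16, quantile normalization). The 17462 probes detected (p under 0.05) on 3 or more of the 6 arrays were tested two-sided with lmFit and eBayes, at a Benjamini-Hochberg threshold of 0.05 over all of these probes. The brightest kept probe stood for a gene. Where no array of a population detected a gene, its fold is a lower bound against the lowest detected signal of each array, or against the probe's own signal if that was higher. The median SE was 0.195 log2 units with 7.34 degrees of freedom, and the number of arrays limits the precision. In data simulated for this comparison over 17462 probes, 23% of 100 probes changed by 1 log2 unit and 86% of 100 changed by 2 were recovered, with 6 false calls. Noise in the simulation was drawn separately for each probe and array, without differences in array brightness or links between arrays of the same number. The recovered shares and false calls hold for that setting alone and give no error rate for the real arrays.

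The 9 genes, the related and marker lists and the alternatives were chosen with earlier results of these data known. Named from each list were up to 4 genes past the threshold by size and up to 3 others by brightness, beside defining markers and the 5 genes most like the mean profile. S100a14, Anxa3, Lmna, Elane, H2-Aa, Cd74, Siglech, Klrb1c, Zbtb16, Il2rb and undetected genes were named after their values were seen. The labels state no pairing. Over all kept probes, deviations from the population means correlated at 0.170, 0.125 and 0.305 between arrays of the same number. Between other arrays they correlated at -0.231 to 0.0824. The reported SE and adjusted p come from the fit without pairing, unless the block is named. On this evidence of the data alone, a fit with the number as a block is given beside it where it changes a call. The alternatives were other background corrections, offsets, normalizations, filters and spread estimates, the authors' log2 values, array brightness, and left-out arrays. Ranges of single genes leave out median scaling and the authors' values before centring.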

Additional observations from a re-analysis of the deposited data

How the results depend on the processing

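The count of probes past the threshold was 206 (162 higher, 44 lower). It was 320 without background correction, 313 with the authors' values, 369 with an intensity trend and robust spread, 397 with array weights, 83 with the replicate block, 8 with array brightness as a covariate, 50 without CD103- arrays 2 and 3, and 95 after median scaling centred on all probes, a setting chosen after seeing the data, as were the authors' values so centred. Median scaling alone gave 65 higher and 83 lower, since it shifted the median difference of all tested probes from 0.04 to -0.14, and the authors' values shifted it to 0.13. Leaving out 1 array gave 52 to 860 probes, with 860 without CD103- array 1 and 52, 67 and 54 without CD103+ arrays 1, 2 and 3. Of the 9 genes, 2 passed as reported, 4 without background correction or with the intensity trend (Lgals3 and Anxa2 added), 1 with the replicate block (Vim lost), 0 with array brightness or without CD103- arrays 2 and 3, and 0 to 2 with 1 array left out, with 0 without CD103+ array 1 or 3. With Lgals3 added, 3 of the 9 passed after cyclic loess, with an offset of 50, with the strict filter and with array weights. The same 3 passed with the authors' values, centred or not. In the fit without CD103- arrays 2 and 3 the differences were close to those reported, 1.86 for S100a4, 0.93 for Vim and 0.90 for Lgals3, with larger standard errors. Of the related genes 3 passed as reported, 0 with array brightness or without CD103- arrays 2 and 3, and 0 to 4 with 1 array left out, with 0 without any of the CD103+ arrays or CD103- array 3 and 1 without CD103- array 2. The replicate block left 2, S100a1 and Ccl5, and it changed no other call among the named genes of the related lists. The cause of these shifts was not tested.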
